A study of Homo sapiens with 8 samples.

Results

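The Sm, LSm and small nuclear ribonucleoprotein (snRNP) protein genes were followed in K562 cells that expressed SF3B1 from a doxycycline-inducible transgene. Members were the genes whose symbol in the deposited transcript lists began with SNRPA to SNRPG, was SNRNP with a number, or was LSM with a number. This gave 30 genes of 23854, with 43 reference transcripts on the primary chromosomes, chosen by name, with earlier results of these data known. By class they were 7 Sm core genes, 2 of the U1 snRNP, 2 of the U2 snRNP, 3 of the U4/U6.U5 tri-snRNP, 3 of the U11/U12 snRNP, 7 of the LSm1-8 rings, 2 of the U7 snRNP, 3 other LSm genes and 1 pseudogene. SNRNP70, the U1 70K protein, and LSM8, which the files call NAA38, fell outside the rule because of how the files name them.

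The 4 groups of 2 libraries were K700E_induced (SF3B1-K700E transgene, doxycycline at 1 µg/ml for 48 h), K700E_uninduced (the same transgene, no doxycycline), WT_induced (SF3B1-WT transgene, doxycycline at 1 µg/ml for 48 h) and WT_uninduced (the same transgene, no doxycycline). K562 is an erythroleukaemia line with early erythroid features, and the labels name no change to the cells' own SF3B1 genes. Total RNA was depleted of ribosomal RNA and sequenced. The labels do not say whether the 2 replicates of a group were separate cultures, or whether a line was 1 clone, and each p-value reflects only the spread between these libraries, which may be technical.

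Sm proteins form a ring around the U1, U2, U4 and U5 small nuclear RNAs, and the related LSm proteins form one ring on U6 in the nucleus and another that promotes mRNA decapping and decay in the cytoplasm. Proteins specific to each particle complete the snRNPs that recognise splice sites and carry out splicing. SF3B1 belongs to the U2 snRNP and helps it to recognise the branch point, and the K700E substitution is known for directing U2 to other 3′ splice sites (acceptors).

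The sequences around 2 acceptors show how the spliced RNA differs between forms. They are from GENCODE transcripts on GRCh38, written 5′ to 3′ on the sense strand, whereas positions in the deposited files are on hg19. Introns and exons were matched between the builds by their lengths, which were equal. The first pair is LSM14B, on the plus strand of chromosome 20, where exon 3 can be joined to an exon inside intron 3 or to the exon after it. The capitals mark the first 60 nt of the exon that follows exon 3.
LSM14B-204, exon 3 to the intronic exon: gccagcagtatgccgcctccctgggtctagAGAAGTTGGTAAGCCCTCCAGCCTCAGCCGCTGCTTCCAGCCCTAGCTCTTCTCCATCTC
LSM14B-201, exon 3 to exon 4 of the reference: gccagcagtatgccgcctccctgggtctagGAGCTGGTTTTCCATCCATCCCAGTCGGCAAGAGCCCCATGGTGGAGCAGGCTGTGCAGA
Exon 3 lies at chr20:62126304-62126439, the intronic exon begins at chr20:62127585 and the next exon of the reference at chr20:62129785, all on GRCh38. All the letters printed are coding in the transcript named.

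The second pair is LSM7, on the minus strand of chromosome 19, where exon 3 can begin at either of 2 acceptors 4 nt apart. The capitals mark the 4 coding bases that only the longer exon holds.
LSM7-201, exon 2 to exon 3: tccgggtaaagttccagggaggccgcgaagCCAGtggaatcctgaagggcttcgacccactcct
LSM7-203, exon 2 to exon 3: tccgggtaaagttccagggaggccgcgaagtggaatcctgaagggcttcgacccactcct
GENCODE gives exon 3 as 72 nt, all coding, in LSM7-201 and as 68 nt in LSM7-203, where the annotated coding part of the exon is 8 nt long. On GRCh38 the longer exon lies at chr19:2324125-2324196 and the shorter at chr19:2324125-2324192. Another line is from SNRPG-201 on the minus strand of chromosome 2, with the 23-nt exon 2 in capitals, at chr2:70289350-70289372, because 1 library held a form that skips it.
SNRPG-201, exon 1 to exon 3: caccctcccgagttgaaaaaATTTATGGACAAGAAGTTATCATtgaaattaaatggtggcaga

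Values are FPKM (fragments per kilobase of transcript per 1000000 mapped fragments) per transcript, summed per gene over its reference transcripts and the spliced transcripts assembled in that library. They were scaled between libraries by factors of 0.99 to 1.04. The deposited lists hold no read counts. The mean coverage given in them was 3.28 to 4.78 per FPKM. The lists' own confidence limits had a median half-width of 6.16% to 6.94% over longer reference transcripts of middle FPKM. Low transcripts could have wider limits, such as 2.16 to 3.16 around 2.66 FPKM for the LSM14B reference transcript in replicate 2 of K700E_induced. Libraries of the same group were no more alike than libraries of other groups (mean correlation of log2 values 0.842 and 0.839 over 8736 genes). The 12 markers of K562 cells were all detected and summed to 3826 to 8712 FPKM, whereas MS4A1, CD14 and MPO, which mark B cells and myeloid cells, were listed at 0 in all 8. SF3B1 stood at 28.6 and 39.0 FPKM in K700E_induced, 33.3 and 30.7 in K700E_uninduced, 36.5 and 26.9 in WT_induced and 37.7 and 31.3 in WT_uninduced, so its summed level did not separate induced from uninduced cells. Whether the transgene's RNA is counted in these transcripts was not tested. In bulk RNA, fewer cells with a transcript and less transcript per cell cannot be told apart.

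Of the 30 members, 29 passed the filter of a mean of 1 FPKM and 27 were above 0 in all 8 libraries. The pseudogene SNRPD2P2 was listed at 0 throughout. The highest means were those of the Sm core genes SNRPB (199 FPKM, range 154 to 243), SNRPD2 (197 FPKM, 145 to 255) and SNRPG (168 FPKM, 45.3 to 358), followed by LSM3 (157 FPKM, 97.4 to 229). These 4 ranges overlap, so their order is not fixed beyond the spread. The lowest were LSM6 (8.28 FPKM, 0 to 21.7) and the U7 gene LSM11 (3.37 FPKM, 0 to 9.81). LSM7 was the member with the smallest spread between replicates, with a pooled SD of 0.175 on the log2 scale, and LSM10, of the U7 snRNP, had the widest at 1.87. The median SD was 0.625 over the 29 members and 0.722 over all 11451 tested genes.

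**Figure D1:**
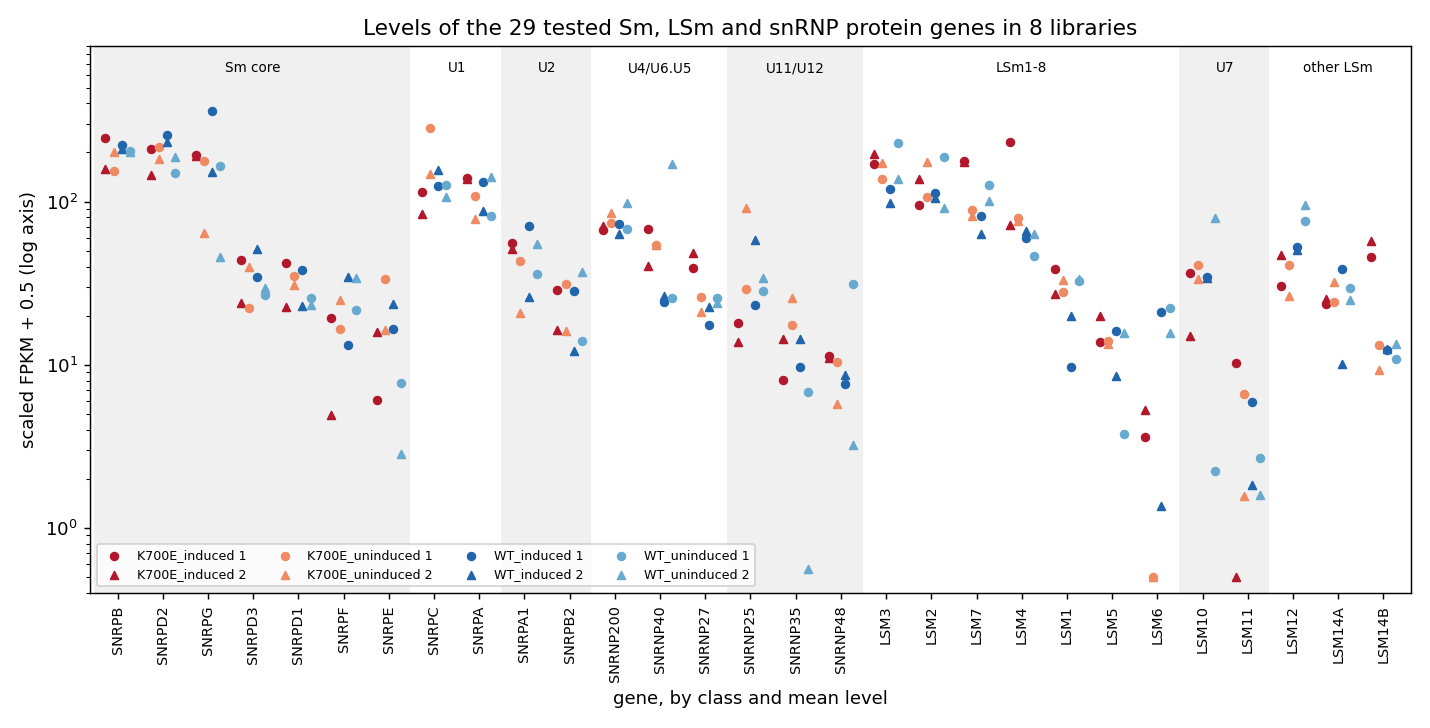
Scaled FPKM + 0.5 on a log axis for the 29 tested members, grouped by class; each point is 1 library, with colour for the group and shape for the replicate. SNRPB, SNRPD2 and SNRPG lie highest and LSM6 and LSM11 lowest, and the red points of LSM7 and LSM14B stand above all others of those genes.

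No member passed the threshold of an adjusted p of 0.05 in limma in any of the 5 comparisons. Over all 11451 genes, the percentage past it was 0.0175% on K700E induction, 0.0262% on WT induction, 0.0349% for K700E_induced against WT_induced, 0.0175% for K700E_uninduced against WT_uninduced and 0.0262% for the interaction, which is the difference between both inductions. At an unadjusted p under 0.05 there were 6 members of 29 on K700E induction, against 4.65% of all genes, and 4 members on WT induction, against 4.38% of all genes. There were 5 members for K700E_induced against WT_induced, all higher in K700E_induced (5.23% of all genes), 4 for K700E_uninduced against WT_uninduced (4.67%) and 6 for the interaction (4.31%). The members' median log2 fold change was 0.10 on K700E induction and -0.00 on WT induction, beside -0.01 and 0.00 over all genes, and 15 and 14 of the 29 were above 0. With 2 libraries a group, values of the groups did not overlap for 13 members on K700E induction, 8 higher in K700E_induced (16% of all genes) and 5 lower (17.7% of all genes). On WT induction 5 members were higher in WT_induced without overlap (15.1% of all genes) and 5 were lower (14% of all genes).

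**Figure D2:**
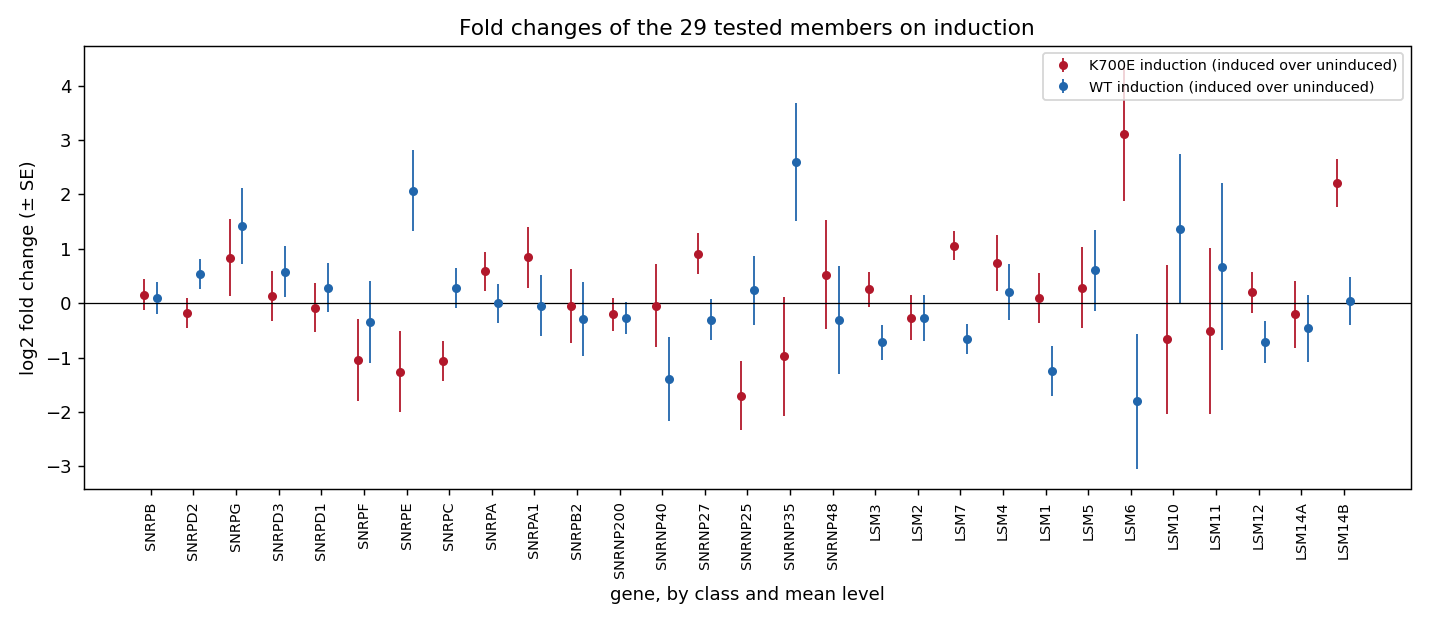
Log2 fold changes (induced over uninduced, ± SE from limma on log2 of FPKM + 0.5) of the 29 tested members, in red for K700E induction and in blue for WT induction, ordered by class. LSM14B (2.21 ± 0.44) and LSM7 (1.06 ± 0.27) lie above 0 on K700E induction, and none of the points passed the adjusted threshold.

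LSM14B encodes a cytoplasmic RNA-binding protein of the LSm14 (RAP55) family, whose relative LSM14A takes part in P-body assembly and translational repression. Its summed level was 44.9 and 57.2 FPKM in K700E_induced, 12.8 and 8.72 in K700E_uninduced, 11.87 and 12.01 in WT_induced, and 10.4 and 12.8 in WT_uninduced. On this sum, both K700E_induced libraries lay above the other 6, which spanned 8.72 to 12.8 FPKM. The log2 fold change was 2.21 (SE 0.44, adjusted p = 0.875 in limma) on K700E induction and 0.05 (SE 0.44, adjusted p = 1) on WT induction, and neither passed the threshold. It was 2.04 (SE 0.44, adjusted p = 0.49) for K700E_induced against WT_induced, -0.12 (SE 0.44, adjusted p = 1) for K700E_uninduced against WT_uninduced and 2.16 (SE 0.63, adjusted p = 0.999) for the interaction. With all transcripts assembled at the locus counted, the log2 fold change was 2.21 on K700E induction and -1.99 on WT induction (SE 1.23 each). It was -2.16 (SE 1.23) for K700E_uninduced against WT_uninduced. On that count the mean of WT_uninduced lay about as far above K700E_uninduced as that of K700E_induced did. K700E_induced thus no longer stood apart from WT_uninduced, but its log2 fold change against WT_induced stayed at 2.04 (SE 1.23). The SE was also wider than the 0.44 of the sum, so replicates differed more on that count. Whether 1 library set the WT_uninduced mean was not tested.

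The excess in K700E_induced lay on transcripts outside the reference. The reference transcript of 9 exons and 2594 nt had 7.38 and 2.66 FPKM in K700E_induced, 6.42 and 8.72 in K700E_uninduced, 11.87 and 12.01 in WT_induced, and 2.07 and 12.8 in WT_uninduced. The groups did not all overlap: both WT_induced libraries lay above both K700E_induced and both K700E_uninduced libraries, whereas WT_uninduced overlapped all others. On the reference transcript alone, the log2 fold change on K700E induction was -0.67 (SE 0.94, adjusted p = 1), opposite in sign to that of the sum.

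An assembled transcript of 652 nt in 1 K700E_induced library and 653 nt in the other held exons 1 to 3 of the reference and spliced exon 3 to an acceptor inside intron 3, at hg19 chr20:60702641. It had 37.6 FPKM (the lists' confidence limits 33.7 to 41.4, mean coverage 169) in replicate 1 and 26.1 FPKM (22.9 to 29.4, mean coverage 105) in replicate 2 of K700E_induced. It was not assembled in any of the other 6 libraries. The intron ran over hg19 chr20:60701496-60702640 and was 1145 nt long, and the reference intron from the same donor was 3345 nt long, so the intronic acceptor lay 2200 nt upstream of the reference one. Of the FPKM spliced from that donor, 83.6% and 90.8% went to the intronic acceptor in K700E_induced and 0% in each of the other 6 libraries. A value of 0% means that no transcript counted for the gene in that library held the intron. How many reads crossed either acceptor was not tested. The FPKM on the reference acceptor was 7.38 and 2.66 in K700E_induced, 12.8 and 8.72 in K700E_uninduced, 11.87 and 12.01 in WT_induced, and 10.4 and 12.8 in WT_uninduced. Both K700E_induced libraries were the lowest of the 8 on the reference acceptor, and both were the only ones above 0 on the intronic one. In replicate 2 of K700E_induced a separate 3′ part, described below, counts toward neither acceptor, so the shares leave it out.

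The assembled transcript ended 19 nt after the intronic acceptor in replicate 1 and 20 nt after it in replicate 2. An exon at this distance from exon 3 is annotated in GENCODE, where the exon before it has the same 136 nt and the intron the same 1145 nt. In LSM14B-204 it is the last of 4 exons and has 446 nt, of which 236 nt are coding, and in LSM14B-203 it is an internal exon of 117 nt before exon 4 of the reference. The letters in capitals in the LSM14B-204 line above begin at that exon's first base, and only the first 19 to 20 of them were covered by the assembled transcript. Which of the annotated forms the RNA belongs to was not tested.

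The parts of the gene on either side of intron 3 differed between both K700E_induced libraries. On introns 1 and 2 the FPKM was 44.9 and 28.8 in K700E_induced, 6.42 and 8.72 in K700E_uninduced, 11.87 and 12.01 in WT_induced, and 2.07 and 12.8 in WT_uninduced. K700E_induced was above all other libraries there. On introns 4 to 8 it was 7.38 and 31.0 in K700E_induced, 12.8 and 8.72 in K700E_uninduced, 11.87 and 12.01 in WT_induced, and 10.4 and 12.8 in WT_uninduced. Here replicate 1 of K700E_induced was the lowest of the 8 libraries and replicate 2 the highest, owing to a separate assembled 3′ part of 998 nt with 28.4 FPKM in replicate 2. The first exon of that part has 353 nt and ends where exon 4 of the reference ends, which has 168 nt. It therefore begins inside intron 3, and which acceptor its RNA used was not tested. That part does not overlap the transcript with the intronic acceptor, and the gene's summed FPKM counts both in full. With each transcript's FPKM multiplied by its length in kb, LSM14B had a length-weighted level of 43.6 and 52.3 in K700E_induced, 30.5 and 22.6 in K700E_uninduced, 30.8 and 31.2 in WT_induced, and 24.1 and 33.3 in WT_uninduced. K700E_induced stayed above the other 6, with a smaller log2 fold change of 0.85 (SE 0.55, adjusted p = 1 in limma) on K700E induction.

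**Figure D3:**
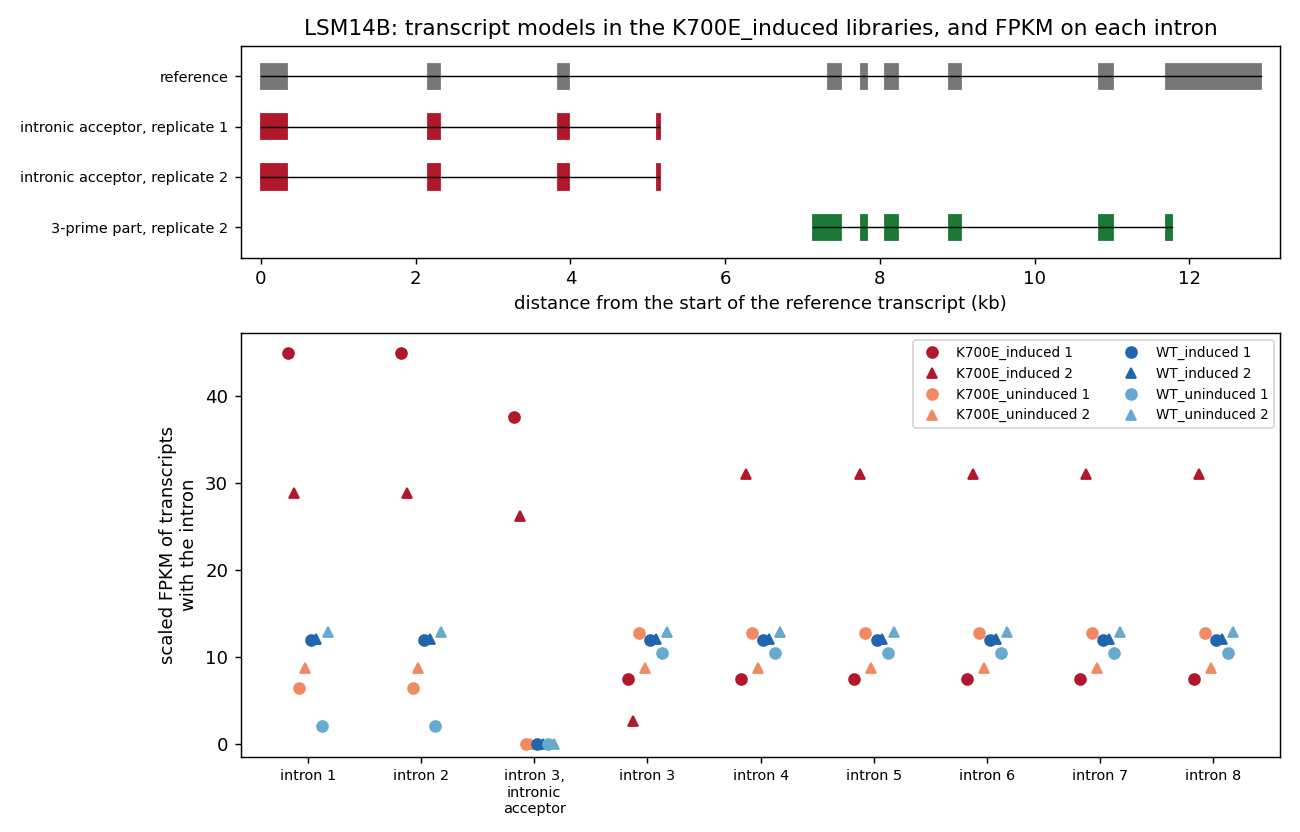
Upper panel, exons of the LSM14B reference transcript and of the transcripts assembled in both K700E_induced libraries, by distance in kb from the start of the reference transcript; lower panel, scaled FPKM of the transcripts holding each intron, 1 point a library. The intron with the intronic acceptor is at 37.6 and 26.1 FPKM in K700E_induced and at 0 in the other 6 libraries, and on reference intron 3 both K700E_induced libraries are lowest.

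Across all genes, 5102 introns outside the reference were found in assembled transcripts, of which 83.1% were in 1 library. Those in both K700E_induced libraries and no other made up 0.51% (26 introns in 21 genes), and the same count was 0.353% for K700E_uninduced (18), 0.235% for WT_induced (12) and 0.333% for WT_uninduced (17). Among members there were 11 such introns in 8 genes. That of LSM14B was the only one in both libraries of 1 group and no other, 9 were in a single library, and the remaining one was in LSM7. As a share of the gene, the transcript with the intronic acceptor had an adjusted p of 0.898 in limma on K700E induction, where 0% of 24624 transcripts passed the threshold and 3.74% had an unadjusted p under 0.05.

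LSM7 is a subunit of both LSm rings, on U6 and on mRNA due for decay. It had 178 and 174 FPKM in K700E_induced, 87.9 and 81.3 in K700E_uninduced, 80.9 and 63.1 in WT_induced, and 127 and 101 in WT_uninduced. The 4 groups did not overlap, with K700E_induced highest and WT_uninduced next, although the higher WT_induced library and the lower K700E_uninduced library were within 1 FPKM of each other. The means were 176 ± 2.68 in K700E_induced and 84.6 ± 4.61 in K700E_uninduced (SD, n = 2 each), against 72.0 ± 12.6 in WT_induced and 114 ± 18.1 in WT_uninduced (SD, n = 2 each).

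The log2 fold change of LSM7 was 1.06 (SE 0.27, adjusted p = 0.977 in limma) on K700E induction and -0.66 (SE 0.27, adjusted p = 0.992) on WT induction. It was 1.30 (SE 0.27, adjusted p = 0.45) for K700E_induced against WT_induced, -0.42 (SE 0.27, adjusted p = 0.968) for K700E_uninduced against WT_uninduced and 1.71 (SE 0.39, adjusted p = 0.999) for the interaction. None passed the threshold. The length-weighted levels were 87.0 and 90.6 in K700E_induced, 45.7 and 36.2 in K700E_uninduced, 40.6 and 32.8 in WT_induced, and 65.7 and 43.0 in WT_uninduced, in the same order of group means.

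The acceptor of LSM7 intron 2 varied between libraries and not by group. The FPKM on the acceptor 4 nt downstream of the reference one was 91.8 and 0 in K700E_induced, 0 and 81.3 in K700E_uninduced, 37.7 and 0 in WT_induced, and 0 and 101 in WT_uninduced. In each group 1 library used it and the other was listed at 0. Its share of the FPKM from that donor was 51.5% and 0% in K700E_induced, 0% and 100% in K700E_uninduced, 46.6% and 0% in WT_induced, and 0% and 100% in WT_uninduced. The 4 bases are those in capitals in the LSM7-201 line above. Both forms are nearly identical in sequence, and how many reads crossed each acceptor was not tested. Replicate 1 of WT_induced also spliced intron 3 to an acceptor 24 nt upstream of the reference one, on the same 37.7 FPKM.

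**Figure D4:**
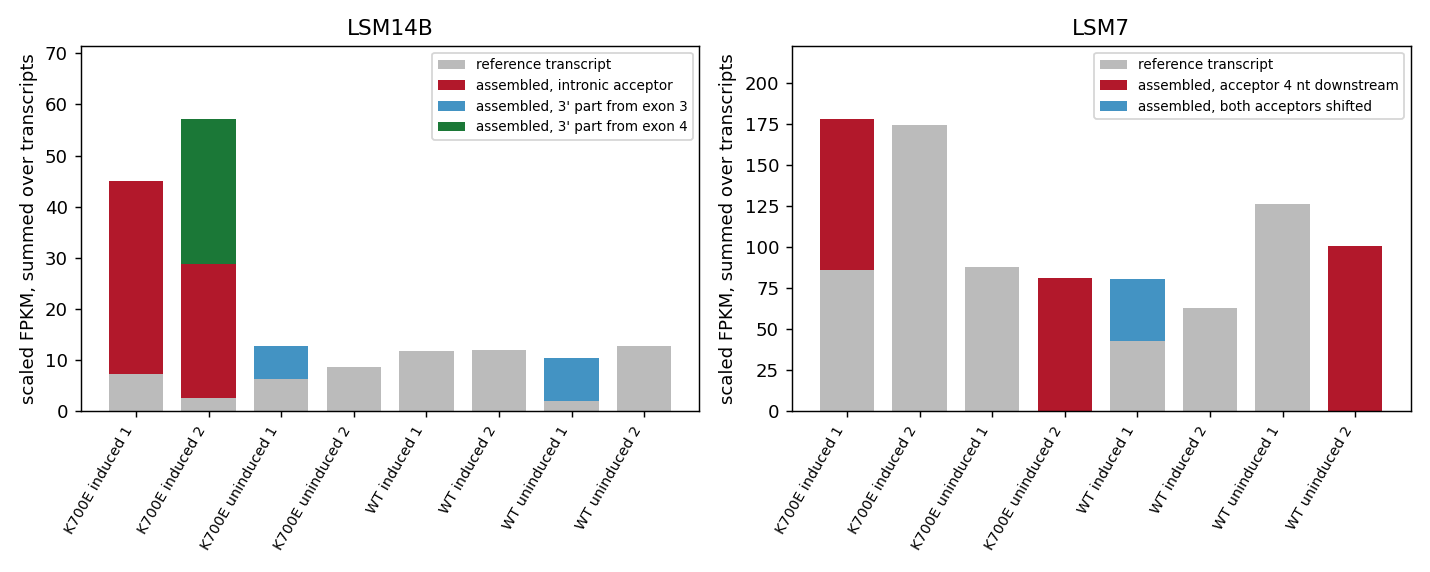
Stacked scaled FPKM of the transcripts of LSM14B and LSM7 in each of the 8 libraries, grey for the reference transcript and colours for assembled ones. The red form of LSM14B, with the intronic acceptor, is in both K700E_induced libraries only, whereas the red form of LSM7, with the acceptor 4 nt downstream, is in 1 library each of K700E_induced, K700E_uninduced and WT_uninduced.

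The Sm core genes, whose products make up the ring common to U1, U2, U4 and U5, summed to 756 and 559 FPKM in K700E_induced, 651 and 556 in K700E_uninduced, 937 and 721 in WT_induced, and 598 and 521 in WT_uninduced. Both WT_induced libraries lay above both WT_uninduced libraries, and the K700E groups overlapped. On WT induction 6 of the 7 had a log2 fold change above 0, with a median of 0.53, and on K700E induction 3 had, with a median of -0.09. SNRPE, the Sm E protein, had 5.54 and 15.3 FPKM in K700E_induced, 32.8 and 15.8 in K700E_uninduced, 15.95 and 23.1 in WT_induced, and 7.18 and 2.35 in WT_uninduced. It was higher in WT_induced and lower in K700E_induced than in the uninduced cells of the same line, without overlap but by a narrow gap for K700E. Its log2 fold change was 2.07 (SE 0.74, adjusted p = 0.992 in limma) on WT induction, 2.32 (SE 0.74, adjusted p = 0.968) for K700E_uninduced against WT_uninduced and -3.33 (SE 1.05, adjusted p = 0.999) for the interaction. Without replicate 2 of WT_uninduced the first was 1.35 and the second 1.60.

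SNRPG, the Sm G protein, had 192 and 191 FPKM in K700E_induced, 178 and 64.0 in K700E_uninduced, 358 and 151 in WT_induced, and 165 and 45.3 in WT_uninduced. The widest gaps here were between replicates. Of the 358 FPKM in replicate 1 of WT_induced, 155 FPKM were on an assembled form that joins exon 1 to exon 3 and skips the 23-nt exon printed above, at hg19 chr2:70516482-70516504, and this form was not assembled in the other 7 libraries. SNRPB, which encodes Sm B and B′ from 2 transcripts, had 243 and 158 FPKM in K700E_induced, 154 and 201 in K700E_uninduced, 223 and 210 in WT_induced, and 203 and 202 in WT_uninduced. SNRPD1, SNRPD2, SNRPD3 and SNRPF, the remaining Sm proteins, had log2 fold changes of -1.05 to 0.13 on K700E induction and -0.35 to 0.58 on WT induction, none past the threshold. SNRPD1 spanned 22.0 to 41.8 FPKM, SNRPD3 21.6 to 50.6 and SNRPF 4.4 to 33.9.

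**Figure D5:**
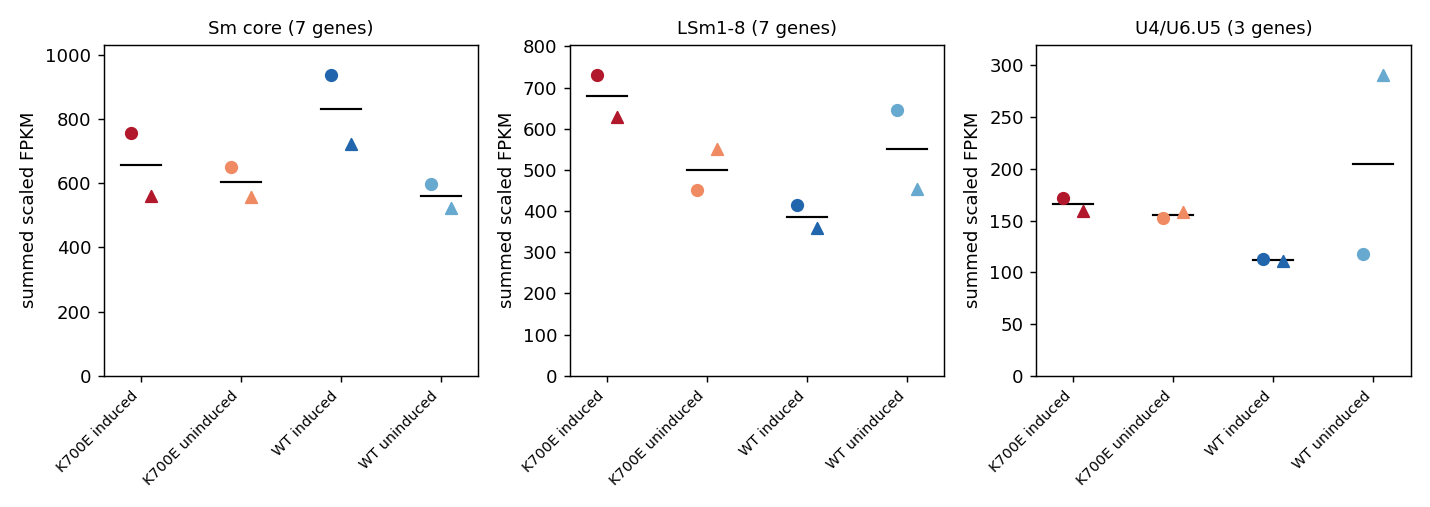
Scaled FPKM summed over the members of 3 classes, with 1 point a library and a line at the group mean. The LSm1-8 sum is higher in both K700E_induced libraries (731 and 629) than in both WT_induced libraries (415 and 358), and the Sm core sum is highest in replicate 1 of WT_induced (937).

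Of the U1 genes, SNRPC, whose protein helps U1 to bind the 5′ splice site, had 114 and 83.9 FPKM in K700E_induced, 284 and 146 in K700E_uninduced, 124 and 157 in WT_induced, and 125 and 106 in WT_uninduced. It was lower in K700E_induced than in K700E_uninduced without overlap, by -1.06 on the log2 scale (SE 0.37, adjusted p = 0.977 in limma), short of the threshold. In replicate 1 of K700E_uninduced 212 FPKM were on an assembled form with another donor, and the fold change was -0.58 without that library and -0.06 on reference transcripts alone. SNRPA, which binds a stem loop of the U1 RNA, spanned 77.6 to 141 FPKM, with 138 and 137 in K700E_induced above 108 and 77.6 in K700E_uninduced.

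The U2 members were SNRPA1, with 20.2 to 70.3 FPKM, and SNRPB2, whose protein binds a U2 stem loop together with that of SNRPA1, with 11.6 to 36.4 FPKM. SNRPA1 had 55.5 and 50.9 FPKM in K700E_induced, above 42.5 and 20.2 in K700E_uninduced, whereas the WT groups overlapped at 70.3 and 25.4 in WT_induced and 35.4 and 54.1 in WT_uninduced. Its log2 fold change of 0.85 on K700E induction had an SE of 0.56 and did not pass the threshold. For SNRPB2 all groups overlapped in the 2 inductions.

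Among the tri-snRNP genes, SNRNP27, a 27K protein of the U4/U6.U5 particle, had 38.8 and 48.2 FPKM in K700E_induced, 25.3 and 20.6 in K700E_uninduced, 17.0 and 22.2 in WT_induced, and 24.98 and 23.3 in WT_uninduced. Both K700E_induced libraries lay above the other 6. Its log2 fold change was 1.13 (SE 0.38, adjusted p = 0.887 in limma) for K700E_induced against WT_induced and 0.91 (SE 0.38, adjusted p = 1) on K700E induction. SNRNP200, the U5 helicase Brr2 that unwinds U4 from U6, was among the steadiest members, at 62.8 to 97.4 FPKM with a pooled SD of 0.211 on the log2 scale. SNRNP40, a U5 WD-repeat protein, had 23.8 to 67.2 FPKM in 7 libraries and 170 in replicate 2 of WT_uninduced, where 124 FPKM were on an assembled form with the gene's first intron alone.

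The U11/U12 genes, whose products serve the minor spliceosome, were lower and more variable. SNRNP25 had 17.6 and 13.4 FPKM in K700E_induced, 28.7 and 90.9 in K700E_uninduced, 22.6 and 57.9 in WT_induced, and 28.0 and 33.6 in WT_uninduced. It was lowest in K700E_induced, with a log2 fold change of -1.70 on K700E induction (SE 0.64, adjusted p = 0.977 in limma), short of the threshold. In replicate 2 of K700E_uninduced 45.3 FPKM were on a form assembled in that library alone. On reference transcripts alone SNRNP25 had 28.7 and 45.6 FPKM in K700E_uninduced, a smaller gap above K700E_induced. SNRNP35 had 7.55 and 13.95 FPKM in K700E_induced, 17.01 and 25.1 in K700E_uninduced, 9.15 and 13.97 in WT_induced, and 6.31 and 0.06 in WT_uninduced. The low value of replicate 2 of WT_uninduced set much of its log2 fold change of 3.44 (SE 1.09, adjusted p = 0.968) for K700E_uninduced against WT_uninduced, which was 1.63 without that library and 5.25 without replicate 1 of WT_uninduced. SNRNP48 spanned 2.71 to 31.0 FPKM with the highest and the lowest value both in WT_uninduced.

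The LSm ring genes, LSM7 included, summed over all 7 to 731 and 629 FPKM in K700E_induced, 451 and 550 in K700E_uninduced, 415 and 358 in WT_induced, and 645 and 454 in WT_uninduced. K700E_induced lay above K700E_uninduced and above WT_induced, and overlapped WT_uninduced. The gap to K700E_uninduced rested on LSM7 and on 1 assembled form of LSM4 in replicate 1 of K700E_induced. Without LSM7 the sums were 553 and 455 FPKM in K700E_induced and 363 and 469 in K700E_uninduced, and without the LSM4 form they were 535 and 629 in K700E_induced and 451 and 550 in K700E_uninduced, so that both pairs overlapped. K700E_induced stayed above WT_induced in both cases, with 335 and 295 FPKM in WT_induced without LSM7. Between K700E_induced and WT_induced 6 of the 7 genes had a log2 fold change above 0, with a median of 0.77, beside 50.5% above 0 over all genes. LSM4 was among the 6 through its assembled form. On reference transcripts alone it had 36.2 and 71.2 FPKM in K700E_induced and 59.1 and 65.3 in WT_induced, with the lower mean in K700E_induced. LSM3, in both rings, had 171 and 196 FPKM in K700E_induced, 136 and 173 in K700E_uninduced, 118 and 97.4 in WT_induced, and 229 and 136 in WT_uninduced. LSM1, which is specific to the cytoplasmic ring, had 38.4 and 26.5 FPKM in K700E_induced, 27.4 and 32.4 in K700E_uninduced, 9.23 and 19.4 in WT_induced, and 31.9 and 33.0 in WT_uninduced. WT_induced was lowest in both, and the log2 fold change of LSM1 on WT induction was -1.25 (SE 0.46, adjusted p = 0.992 in limma). It was -0.72 without replicate 1 of WT_induced. LSM1 shares 143 nt of exon with BAG4 on the opposite strand, and no source used here says that the counting used strand.

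LSM4 stood at 45.6 to 79.0 FPKM in 7 libraries and at 233 in replicate 1 of K700E_induced, where 197 FPKM were on an assembled form with another donor. Without that form the 8 libraries spanned 36.2 to 79.1 FPKM, with that library lowest. LSM2, in both rings, had 90.8 to 187 FPKM on its chromosome 6 model, and its copies on 5 alternative haplotypes were all listed at 0. LSM5 had 3.26 to 19.5 FPKM. LSM6 was listed at 0 in both K700E_uninduced libraries and had 3.08 and 4.81 FPKM in K700E_induced, 20.6 and 0.86 in WT_induced, and 21.7 and 15.2 in WT_uninduced. With a group at 0, no fold change is given for it.

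The U7 genes LSM10 and LSM11 replace a pair of Sm proteins in the ring on U7, which serves the processing of histone mRNA ends. LSM10 had 36.0 and 14.5 FPKM in K700E_induced, 40.5 and 33.1 in K700E_uninduced, 33.9 and 33.6 in WT_induced, and 1.74 and 78.4 in WT_uninduced, so both extremes were replicates of 1 group. LSM12, an LSm-domain protein outside the rings, had 29.7 and 46.6 FPKM in K700E_induced, 40.4 and 25.7 in K700E_uninduced, 52.4 and 50.2 in WT_induced, and 75.2 and 94.7 in WT_uninduced. It was lower in K700E_uninduced than in WT_uninduced, by -1.37 on the log2 scale (SE 0.38, adjusted p = 0.961 in limma), short of the threshold. Assembled forms held 31.0% to 66.2% of LSM12 in the 4 WT libraries and 0% in the 4 K700E libraries, and on reference transcripts alone the difference was -0.35. LSM14A, the closest relative of LSM14B, had 23.1 and 24.8 FPKM in K700E_induced, 23.9 and 31.9 in K700E_uninduced, 38.3 and 9.62 in WT_induced, and 29.1 and 24.5 in WT_uninduced, with all groups overlapping on both inductions.

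Reference transcripts of 1 gene often took all or none of it. Of the 43, 38 were above 0 in some library and 5 were at 0 in all 8, and 20 assembled forms in 12 genes were added, 15 of them in a single library. No member transcript of the 42 tested in 17 genes changed its share past the threshold in any comparison, and neither did any of the 24624 tested (0%). At an unadjusted p under 0.05 there were 2 member transcripts on each induction (3.74% of all transcripts on K700E induction and 4.04% on WT induction), 6 for K700E_induced against WT_induced (4.08%), 7 for K700E_uninduced against WT_uninduced (3.85%) and 3 for the interaction (3.78%). The smallest p on WT induction and between the uninduced lines was that of the coding transcript of LSM1, with adjusted p of 0.873 and 0.817 in limma. It held all of the gene in the K700E_induced, K700E_uninduced and WT_induced libraries and was at 0 in both WT_uninduced libraries, where noncoding transcripts of 31.9 and 33.0 FPKM took its place. The main coding transcript of LSM5 (adjusted p = 0.865 for K700E_induced against WT_induced) had 13.3 and 19.5 FPKM in K700E_induced, 12.2 and 12.9 in K700E_uninduced, 7.45 and 0 in WT_induced, and 0 in both WT_uninduced libraries. For SNRPB2, 1 of 2 coding transcripts had 28.3 and 15.8 FPKM in K700E_induced, 8.35 and 0 in K700E_uninduced, 27.8 and 0 in WT_induced, and 0 and 10.9 in WT_uninduced (adjusted p = 0.898 on K700E induction).

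Genes that work with the members were measured in 8 lists, and none of their genes passed the threshold in any comparison. The SMN complex and methylosome, which load Sm proteins onto small nuclear RNA, had 15 of 15 genes tested, with medians of -0.10 on K700E induction and -0.15 on WT induction. CLNS1A, the chaperone pICln, averaged 76.7 ± 4.18 FPKM in K700E_induced and 85.9 ± 2.12 in K700E_uninduced, with 57.4 ± 29.8 in WT_induced and 73.0 ± 24.4 in WT_uninduced (SD, n = 2 each). PRMT5, which methylates Sm proteins, spanned 36.3 to 74.9 FPKM and STRAP 40.9 to 62.2. The 17 partners of the tri-snRNP and U5 had medians of -0.28 on K700E induction and 0.10 on WT induction, and their highest member, PRPF8, spanned 58.8 to 107 FPKM. The 8 genes of snRNA capping, export and import had medians of -0.08 and 0.02, led by KPNB1 at 78.9 to 107 FPKM.

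The 10 decay partners of the cytoplasmic LSm ring had medians of -0.08 on K700E induction and -0.23 on WT induction, and DDX6, a helicase of that pathway, spanned 19.8 to 51.0 FPKM. The 8 genes of U7 and histone end processing had medians of 0.06 and -0.04. SLBP, which binds the histone stem loop, averaged 36.4 ± 2.65 FPKM in K700E_induced and 18.3 ± 0.51 in K700E_uninduced, with 37.8 ± 17.7 in WT_induced and 54.2 ± 16.2 in WT_uninduced (SD, n = 2 each). CPSF3 went the other way on K700E induction, at 19.6 ± 3.88 FPKM in K700E_induced and 47.6 ± 16.3 in K700E_uninduced (SD, n = 2 each). The highest member of that list, SYMPK, spanned 29.4 to 61.9 FPKM. Of the 7 other minor spliceosome genes 6 were tested, with medians of -0.22 on K700E induction and -0.16 on WT induction, 0.94 for K700E_induced against WT_induced and 0.83 for K700E_uninduced against WT_uninduced. ZMAT5 averaged 24.8 ± 6.79 FPKM in K700E_induced against 0.87 ± 1.23 in WT_induced (SD, n = 2 each), and the smallest adjusted p in that list was 0.354 in limma. Of the 20 small nuclear RNAs listed 7 were found and 1 was tested, RNU11, which was above 0 in 1 library. Of the 6 further genes with an Sm-type fold 4 were tested, with ATXN2L at 148 to 209 FPKM.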

How the data were processed

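The authors deposited 1 transcript list per library with FPKM, its confidence limits and coverage, and per the submitters' processing notes the tools were CASAVA, TopHat and Cufflinks and the build hg19. No source used here gives versions, settings or strandedness. FPKM are not counts, so they were tested on a log2 scale. Each list holds 43497 reference transcripts plus transcripts assembled in that library. Transcripts without a symbol were named through a table of current gene names.

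FPKM was summed per gene over reference transcripts and assembled spliced transcripts of 300 nt or more that shared introns with the gene. Libraries were scaled by median ratios over 7552 genes. Genes with a mean of 1 FPKM or more (11451) were tested as log2(FPKM + 0.5), a scale that understates the change of low genes, with limma 3.58.1 (trend, group means, 8 libraries) in R 4.3.3, with Benjamini-Hochberg adjustment over all genes. Transcript shares of 5% to 95% were tested as log2 ratios to the rest of the gene. The fits were tested on simulated data, where features were moved in K700E_induced alone, and many moves were missed. Of genes moved by 2, 4 and 6 on the log2 scale, 10.4%, 53.7% and 86.4% were called. Of transcript shares moved by 4, 8 and 16, 0%, 10.4% and 87.9% were called. A count of 0 past the threshold therefore does not show that members were unchanged. Tables and figures used Python 3.11.15, pandas 2.3.3 and matplotlib 3.10.9.

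The members and lists were chosen with earlier results of these data known. Every member is given with its level; fold changes are given for LSM7, LSM14B and, per comparison, the 3 members with the smallest p above 0 in all libraries. Fold changes of SNRNP25, SNRPA1, the remaining Sm genes and of SNRNP27 on K700E induction, and the form-by-form levels, were added after their values were seen. Alternatives were other pseudocounts, filters, scalings, transcript sets, variance models, a replicate block and leaving out each library. Deviations of same-numbered libraries from their group means correlated between -0.013 and 0.0981, so the numbers were not taken to pair libraries.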

Additional observations from a re-analysis of the deposited data

Results flagged for a closer look

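In 4 members the groups did not overlap on either induction and the directions were opposite, which 4.62% of all tested genes also did. LSM7 was higher in K700E_induced than in K700E_uninduced and lower in WT_induced than in WT_uninduced (interaction 1.71 on the log2 scale, SE 0.39), as was SNRNP27 (1.21, SE 0.53). SNRPE (-3.33, SE 1.05) and SNRNP35 (-3.58, SE 1.54) were lower in K700E_induced than in K700E_uninduced and higher in WT_induced than in WT_uninduced. The interaction was tested in limma, and the adjusted p was 0.999 for each of the 4. With 2 libraries a group, single libraries were not examined as outliers.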

How the results depend on the processing

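The count of members past the threshold was 0 in all 5 comparisons under every alternative run, as was the count of member transcripts by share. Over all genes the count ranged from 1 to 29 on K700E induction, 0 to 17 on WT induction, 2 to 16 for K700E_induced against WT_induced, 0 to 29 for K700E_uninduced against WT_uninduced and 1 to 12 for the interaction. Of 18 named fold changes, 12 kept their direction under every alternative. On reference transcripts alone, LSM14B turned to -0.67 on K700E induction, -1.34 for K700E_induced against WT_induced, 0.45 for K700E_uninduced against WT_uninduced and -1.79 for the interaction, and LSM7 turned to 2.73 on WT induction. With all transcripts of the locus, LSM14B was -1.99 (SE 1.23) on WT induction and -2.16 (SE 1.23) for K700E_uninduced against WT_uninduced. Without 1 library at a time, LSM14B ranged from -0.093 to 0.19 on WT induction and from -0.39 to 0.14 for K700E_uninduced against WT_uninduced. By FPKM on reference intron 3 alone, the log2 ratio of the LSM14B group means on K700E induction was -1.10, against 2.28 on introns 1 and 2 and 0.84 on introns 4 to 8. These values by intron, the length-weighted level the LSM2 copies and the reduced LSm1-8 sums were added after the data were seen. The fit with a replicate block called 0 members in each comparison. The lists hold no counts, so depth limits the low members, such as LSM6 and LSM11, to an unknown degree.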
